A study of Rattus norvegicus with 6 samples.

Results

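The miR-30 family was examined in small RNA libraries of rat serum exosomes. Its members were chosen by name, as the entries of the deposited miRNA table for rno-miR-30a-5p, miR-30a-3p, miR-30b-5p, miR-30c-5p, miR-30d-5p, miR-30d-3p, miR-30e-5p and miR-30e-3p, and no measured value entered that choice. All 8 were found, out of 867 listed miRNAs and 865 with reads in at least 1 library used here, and all 8 had reads in every library. The 5 members of the 5p arms and the 3 members of the 3p arms took 577711 and 10167 reads over the 6 libraries.

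The study asked which miRNAs in circulating exosomes differ after oral Naoxintong Capsule (NXT), a Chinese medicine given for vascular disease. Male Sprague-Dawley rats aged 6 to 8 weeks, on a normal diet and 10 per group, received NXT at 1000 mg/kg/d or saline at 5 mL/kg/d by gavage, and exosomes were collected from serum by ultracentrifugation. The sample titles put the dosing at 7 days. The treatment entries of the samples instead step from 7 days (NXT-Exo 1) over 8, 9 and 10 to 11 days (NXT-Exo 5), with 11 days in Ctl-Exo 5. NXT-Exo comprised 5 libraries (replicates 1 to 5) and Ctl-Exo comprised 1 (replicate 5). The deposited table also has columns under the names of 4 further Ctl-Exo libraries, which match no labelled sample and were not used here. With 1 Ctl-Exo library used, the spread of the control group did not enter any value, range or p-value given here.

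The labels give 10 mL of blood per rat and 110 mL of serum in total, and do not say whether a library is 1 rat or a pool, so every p-value here measures the spread between libraries, which may be technical. The listed reads summed to between 1168686 (NXT-Exo 4) and 3781718 (NXT-Exo 5), with 1890463 in Ctl-Exo 5, and 657 to 768 miRNAs had reads in a library. Levels are given in CPM, the counts of a miRNA scaled to a common library size, with edgeR's TMM factors for differences in composition between libraries. Because a read covers a whole miRNA, no division by length is needed. How far each sequence is captured by adapter ligation was not tested, and it bears on any level compared between different miRNAs. miRNAs cannot show whether the particles were exosomes. The red blood cell list held 7 names, some of them alternative names of the same miRNA. Its 4 measured entries were miR-486, miR-451-5p, miR-144-5p and miR-144-3p, none at 0 in any library. They summed to between 157715 and 260257 CPM in NXT-Exo and to 210386 CPM in Ctl-Exo 5. The 2 miR-122 arms, which mark liver, summed to between 3308 and 17426 CPM in NXT-Exo, highest in NXT-Exo 1, and to 2203 CPM in Ctl-Exo 5. The 4 white blood cell and platelet miRNAs summed to between 20705 and 24462 CPM in NXT-Exo and to 25676 CPM in Ctl-Exo 5.

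A miRNA gene is transcribed into a hairpin, and the hairpin is cut into a duplex of its 5p and 3p arms. The arm loaded into an Argonaute protein guides silencing of mRNAs that pair with its seed, and the other arm is mostly degraded. The miR-30 family is broadly expressed, including in heart, kidney and endothelium, and is known for repressing the Notch ligand Dll4 in endothelial cells and connective tissue growth factor in the heart. In all members known in mammals, the 5p arm carries the family seed.

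The deposited sequences are shown because they define which members share targets and which differ by so few bases that reads are hard to assign. They are written 5′ to 3′ as DNA, with the seed (bases 2 to 8) in capitals. The 5p members were listed as follows.
rno-miR-30a-5p: tGTAAACAtcctcgactggaag
rno-miR-30d-5p: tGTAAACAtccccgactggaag
rno-miR-30e-5p: tGTAAACAtccttgactggaag
rno-miR-30c-5p: tGTAAACAtcctacactctcagc
rno-miR-30b-5p: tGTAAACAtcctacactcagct

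The 5 share the first 11 bases, TGTAAACATCC, and fall by their 3′ ends into a pair and a trio. miR-30b-5p and miR-30c-5p share the first 18 bases, TGTAAACATCCTACACTC. Counted from 1 at the 5′ end, miR-30a-5p differs from miR-30d-5p by T12C alone and from miR-30e-5p by C13T alone, and miR-30d-5p differs from miR-30e-5p by C12T and C13T. The division of reads between miR-30a-5p, miR-30d-5p and miR-30e-5p is uncertain to the extent that the counting allowed mismatches, which is not given in the sources used here.

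The 3p members carry another seed, so they would pair with other mRNAs than the 5p members.
rno-miR-30a-3p: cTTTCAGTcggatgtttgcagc
rno-miR-30e-3p: cTTTCAGTcggatgtttacagc
rno-miR-30d-3p: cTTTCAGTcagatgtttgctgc

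These 3 share the first 9 bases, CTTTCAGTC. miR-30a-3p differs from miR-30e-3p by G18A alone and from miR-30d-3p by G10A and A20T. The table also lists 6 further miR-30 entries, shown because they complete the arms or carry the same seeds.
rno-miR-30c-1-3p: cTGGGAGAgggttgtttactcc
rno-miR-30c-2-3p: cTGGGAGAaggctgtttactct
rno-miR-30b-3p: cTGGGATGtggatgtttacgtc
miR-30-x: tGTAAACAtcctacactctcagctt
miR-30-y: cTTTCAGTcggatgtttacagtt
miR-30-z: tGTAAACAtccgactggaagct

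Over all 867 listed sequences, the seed GTAAACA was found in 7 entries, the 5 members with miR-30-x and miR-30-z, and 99.6% of their 579805 reads were in the members. The seed TTTCAGT was found in 4 entries, the 3 members with miR-30-y, and 91.0% of their 11167 reads were in the members. TGGGAGA was found in miR-30c-1-3p and miR-30c-2-3p alone, with 730 reads, and TGGGATG in miR-30b-3p alone, with 57 reads. Thus 0 miRNAs outside the miR-30 names carried a member's seed. miR-30-x is miR-30c-5p with 2 added 3′ bases, and the first 21 bases of miR-30-y equal those of miR-30e-3p, so both overlap a member and their reads are uncertain between the entries.

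RefSeq held a mature entry for 4 of the 8 members (miR-30a-5p, miR-30a-3p, miR-30c-5p and miR-30e-5p), and all 4 were identical to the deposited sequence. It also held 4 hairpins of the family in the rat assembly GRCr8. They are shown with the listed arms in capitals, as RNA, since the arm ratios reported for them rest on these precursors.
Mir30a, chr9:33233941-33234011, plus strand: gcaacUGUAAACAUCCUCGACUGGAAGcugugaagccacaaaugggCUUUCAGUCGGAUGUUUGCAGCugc
Mir30c2, chr9:33253682-33253765, plus strand: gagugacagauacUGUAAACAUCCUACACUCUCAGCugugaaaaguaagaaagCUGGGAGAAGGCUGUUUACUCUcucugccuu
Mir30c1, chr5:139634455-139634543, minus strand: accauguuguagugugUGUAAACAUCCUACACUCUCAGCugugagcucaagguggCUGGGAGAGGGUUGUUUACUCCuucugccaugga
Mir30e, chr5:139637450-139637541, minus strand: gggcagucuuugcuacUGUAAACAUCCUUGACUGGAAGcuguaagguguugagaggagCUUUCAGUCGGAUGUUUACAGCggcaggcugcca

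The hairpins place miR-30c-5p in 2 genes, Mir30c1 and Mir30c2, whose 5p arms cannot be told apart by sequence while their 3p arms can. Between the arms lie 19 bases in Mir30a, 17 in Mir30c2, 16 in Mir30c1 and 20 in Mir30e. In the RefSeq gene list the family lies in 3 pairs with 0 genes between the partners. Mir30c1 and Mir30e lie inside the protein-coding gene Nfyc, which encodes a subunit of the NF-Y transcription factor. Mir30b and Mir30d lie inside a long non-coding RNA gene (LOC102551574), and Mir30a neighbours Mir30c2, which lies inside another (LOC134480562) and a pseudogene, Rbx1-ps1.

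Both arms together made up between 3.59% and 3.93% of the listed reads of a library. The 5p members summed to 35443, 38296, 39131, 31999 and 38076 CPM in NXT-Exo 1 to 5 and to 38270 CPM in Ctl-Exo 5. The 3p members summed to 582.4, 697.2, 600.7, 777.0 and 639.2 CPM in NXT-Exo 1 to 5 and to 720.9 CPM in Ctl-Exo 5. In both sums Ctl-Exo 5 lay inside the NXT-Exo range. NXT-Exo 4, the library with the fewest reads, had the lowest 5p sum and the highest 3p sum. Whether its depth has a part in this was not tested.

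miR-30d-5p was the most abundant member, at rank 15 of the 865 miRNAs by mean level. Its levels were 12985, 12425, 12269, 10198 and 11824 CPM in NXT-Exo 1 to 5 and 12290 CPM in Ctl-Exo 5 (12132 to 12451 CPM as the 95% Wilson interval of its reads). The Ctl-Exo 5 value lay between NXT-Exo 3 and NXT-Exo 2, with the lowest level in NXT-Exo 4. miR-30a-5p, the 5p arm of Mir30a, had 8712, 9750, 9571, 7944 and 9315 CPM in NXT-Exo 1 to 5 and 9343 CPM in Ctl-Exo 5. Again NXT-Exo 4 was lowest and Ctl-Exo 5 was inside the range, at rank 20 for the mean.

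miR-30c-5p, which 2 genes produce, had 6819, 8847, 9337, 7985 and 9539 CPM in NXT-Exo 1 to 5 and 9168 CPM in Ctl-Exo 5. Its lowest level was in NXT-Exo 1, the library with the highest miR-122 and the lowest red blood cell sum. The part of those cell types in the value was not tested. miR-30e-5p, the 5p arm of Mir30e, had 6526, 6925, 7592, 5390 and 6981 CPM in NXT-Exo 1 to 5 and 7000 CPM in Ctl-Exo 5. The groups overlapped for both.

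miR-30b-5p was much the rarest 5p member, at rank 97. It had 402.4, 349.1, 362.4, 481.5 and 417.6 CPM in NXT-Exo 1 to 5 and 469.4 CPM in Ctl-Exo 5 (439 to 502 CPM as the 95% Wilson interval). NXT-Exo 4 was the only NXT-Exo library above Ctl-Exo 5.

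Among the 3p arms, miR-30a-3p had 321.4, 376.5, 341.2, 439.3 and 347.1 CPM in NXT-Exo 1 to 5 and 417.6 CPM in Ctl-Exo 5, at rank 104. As for miR-30b-5p, NXT-Exo 4 alone of the NXT-Exo libraries exceeded Ctl-Exo 5. miR-30e-3p had 251.7, 314.7, 249.5, 325.2 and 286.6 CPM in NXT-Exo 1 to 5 and 296.7 CPM in Ctl-Exo 5, at rank 117, with 3 NXT-Exo libraries below and 2 above. miR-30d-3p was rare, with 28, 20, 22, 16 and 21 reads in NXT-Exo 1 to 5 and 12 reads in Ctl-Exo 5. That made 9.34, 6.02, 9.89, 12.5 and 5.48 CPM against 6.53 CPM, and the counting interval of the last (3.74 to 11.4 CPM) covered 4 of the 5 NXT-Exo values.

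**Figure D1:**
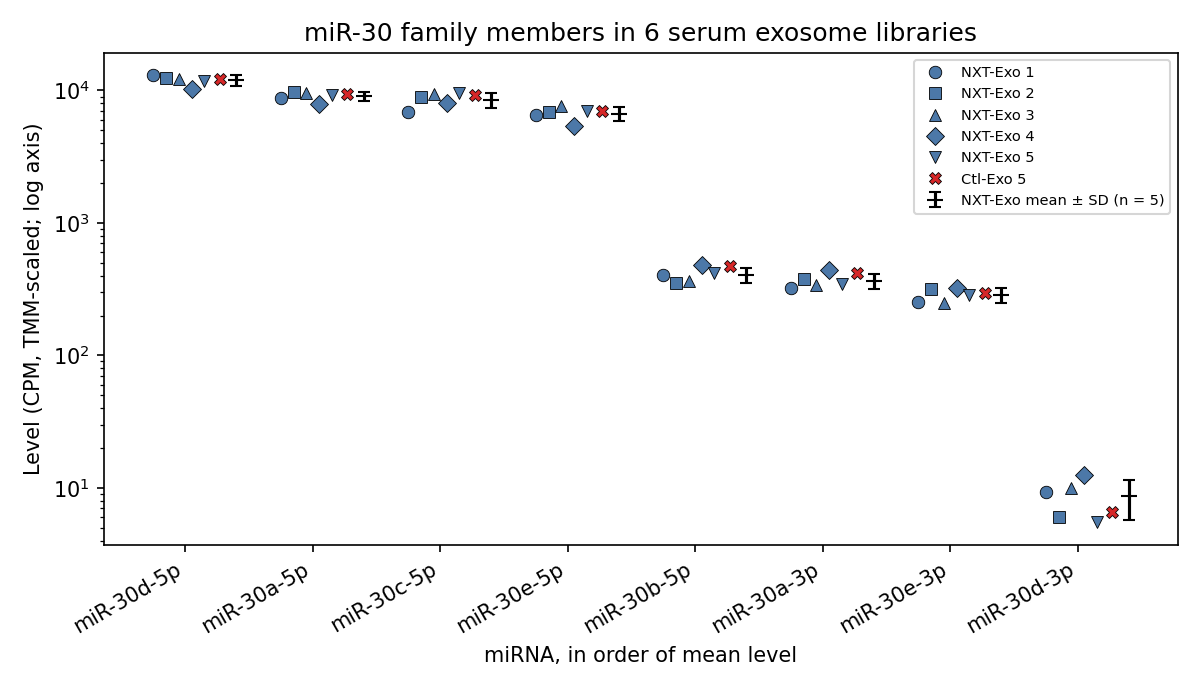
The level of each member in CPM on a log axis is plotted for the 5 NXT-Exo libraries (blue) and Ctl-Exo 5 (red cross), with the NXT-Exo mean ± SD in black. The 4 abundant 5p members sit between 5390 and 12985 CPM, miR-30b-5p, miR-30a-3p and miR-30e-3p between 249.5 and 481.5 CPM, and miR-30d-3p between 5.48 and 12.5 CPM, with Ctl-Exo 5 inside the NXT-Exo range for each member.

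The order of levels was tested between neighbours by the log2 ratio of their reads + 1 within each of the 6 libraries, with an exact two-sided sign-flip permutation test, whose smallest possible p with 6 libraries is 0.03125. Adjusted values are Benjamini-Hochberg over the 7 neighbouring pairs, and the order itself was set on the same libraries. miR-30d-5p exceeded miR-30a-5p by 1.27 to 1.49-fold, in 6 of 6 libraries (exact permutation p = 0.03125, adjusted p = 0.0437). miR-30a-5p and miR-30c-5p were not separated, with a ratio of 0.977 to 1.28-fold that was above 1 in 4 of 6 libraries (exact permutation p = 0.219). miR-30c-5p exceeded miR-30e-5p by 1.04 to 1.48-fold, in 6 of 6 libraries (exact permutation p = 0.03125, adjusted p = 0.0437).

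The step from the abundant 5p members to miR-30b-5p was large. miR-30e-5p exceeded it by 11.2 to 20.9-fold with a geometric mean of 16.3, in 6 of 6 libraries (exact permutation p = 0.03125, adjusted p = 0.0437). miR-30b-5p was not separated from miR-30a-3p, at 0.927 to 1.25 times its level and above it in 5 of 6 libraries (exact permutation p = 0.0938, adjusted p = 0.109). Below them, miR-30a-3p exceeded miR-30e-3p by 1.20 to 1.41-fold and miR-30e-3p exceeded miR-30d-3p by 24.2 to 50.0-fold, each in 6 of 6 libraries (exact permutation p = 0.03125, adjusted p = 0.0437 for both).

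Genomic partners were also set side by side. miR-30d-5p and miR-30b-5p, whose genes are neighbours in a single non-coding RNA gene, differed by 4.86 ± 0.28 on the log2 scale (SD, n = 6 libraries), whereas miR-30c-5p and miR-30e-5p differed by 0.35 ± 0.17 and miR-30a-5p and miR-30c-5p by 0.09 ± 0.14. miR-30c-5p belongs to both of the latter pairs, since its 2 genes cannot be told apart by it.

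As a share of the reads of the 5 5p members, which does not depend on library scaling, miR-30d-5p took 36.64% in NXT-Exo 1, 32.45%, 31.35%, 31.87% and 31.05% in NXT-Exo 2 to 5, and 32.11% in Ctl-Exo 5 (Wilson 95% interval, 31.8% to 32.5%). NXT-Exo 1 stood above the other 5 libraries. miR-30c-5p mirrored it, at 19.24% in NXT-Exo 1, 23.10%, 23.86%, 24.95% and 25.05% in NXT-Exo 2 to 5, and 23.95% in Ctl-Exo 5. Shares sum to 100%, so a high share of 1 member lowers the others. NXT-Exo 1 was also the library with the highest miR-122 sum and the lowest red blood cell sum, and their part in its composition was not tested.

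miR-30a-5p held the steadiest share of the 4 abundant members, at 24.58%, 25.46%, 24.46%, 24.83% and 24.46% in NXT-Exo 1 to 5 and 24.41% in Ctl-Exo 5. miR-30e-5p ranged from 16.84% (NXT-Exo 4) to 19.40% (NXT-Exo 3), with 18.29% in Ctl-Exo 5. miR-30b-5p ranged from 0.912% (NXT-Exo 2) to 1.505% (NXT-Exo 4), with 1.23% in Ctl-Exo 5. The Ctl-Exo 5 share was inside the NXT-Exo range for miR-30b-5p, miR-30c-5p, miR-30d-5p and miR-30e-5p, and for miR-30a-5p it lay just below the lowest NXT-Exo share, by less than its own counting interval (24.1% to 24.7%).

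**Figure D2:**
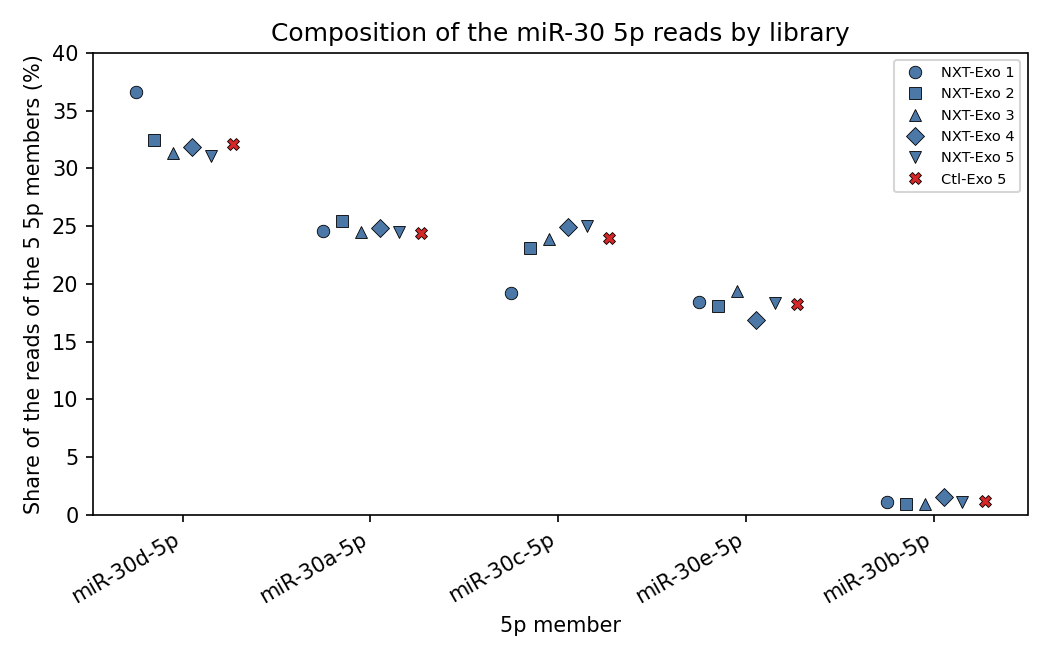
The share of each 5p member in the summed reads of the 5 5p members is plotted in percent for each library. NXT-Exo 1 has the highest miR-30d-5p share (36.64%) and the lowest miR-30c-5p share (19.24%), while the miR-30a-5p shares of all 6 libraries lie between 24.41% and 25.46%.

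Both arms are counted in the same library, so the ratio of a precursor's arms needs no scaling. For miR-30a, 5p over 3p was 27.1, 25.9, 28.0, 18.1 and 26.8-fold in NXT-Exo 1 to 5 and 22.3-fold in Ctl-Exo 5. For miR-30e, it was 25.9, 22.0, 30.4, 16.5 and 24.3-fold in NXT-Exo 1 to 5 and 23.5-fold in Ctl-Exo 5. The 5p arm exceeded the 3p arm in 6 of 6 libraries for both, with geometric means of 24.4 and 23.4-fold, and NXT-Exo 4 had the lowest ratio of each. The miR-30e ratio counts miR-30e-3p alone, without the overlapping entry miR-30-y.

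For miR-30d the 5p arm dominated far more, at 1343, 1965, 1186, 767 and 2061-fold in NXT-Exo 1 to 5 and 1736-fold in Ctl-Exo 5, with a geometric mean of 1431. Its 3p arm rests on 12 to 28 reads a library. As a percentage of both arms, miR-30d-3p was 0.0531% in Ctl-Exo 5 (Wilson 95% interval, 0.0304% to 0.0929%), against 4.28% for miR-30a-3p (3.99% to 4.58%) and 4.07% for miR-30e-3p (3.75% to 4.41%). NXT-Exo 4 had the highest 3p percentage of all 3 precursors, at 5.24% for miR-30a, 0.122% for miR-30d and 5.69% for miR-30e. Each of the 3 arm ratios gave the smallest p that 6 libraries allow (exact sign-flip permutation p = 0.03125, adjusted p = 0.03125 over the 3 precursors).

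The precursors were then compared with each other within libraries, a comparison added after the values were seen. The arm ratio of miR-30d exceeded that of miR-30a by 58.6-fold (log2 difference of miR-30a minus miR-30d, -5.87 ± 0.44, SD, n = 6, exact permutation p = 0.03125, adjusted p = 0.0469) and that of miR-30e by 61.2-fold (5.94 ± 0.50, exact permutation p = 0.03125, adjusted p = 0.0469). Between miR-30a and miR-30e the log2 difference was 0.06 ± 0.14, with a range over libraries of -0.12 to 0.24 (exact permutation p = 0.312, adjusted p = 0.312 over the 3 pairs of precursors). For the arms as listed, a difference was thus not detectable with 6 libraries. The miR-30e ratio leaves out miR-30-y, which had 70 to 246 reads a library beside 416 to 1099 for miR-30e-3p. Counting miR-30-y with miR-30e-3p would lower the miR-30e ratio and raise this difference, and that comparison was not tested. As a description, miR-30b-5p exceeded miR-30b-3p by 61.1 to 173-fold, and miR-30c-5p exceeded the sum of miR-30c-1-3p and miR-30c-2-3p by 144 to 215-fold.

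**Figure D3:**
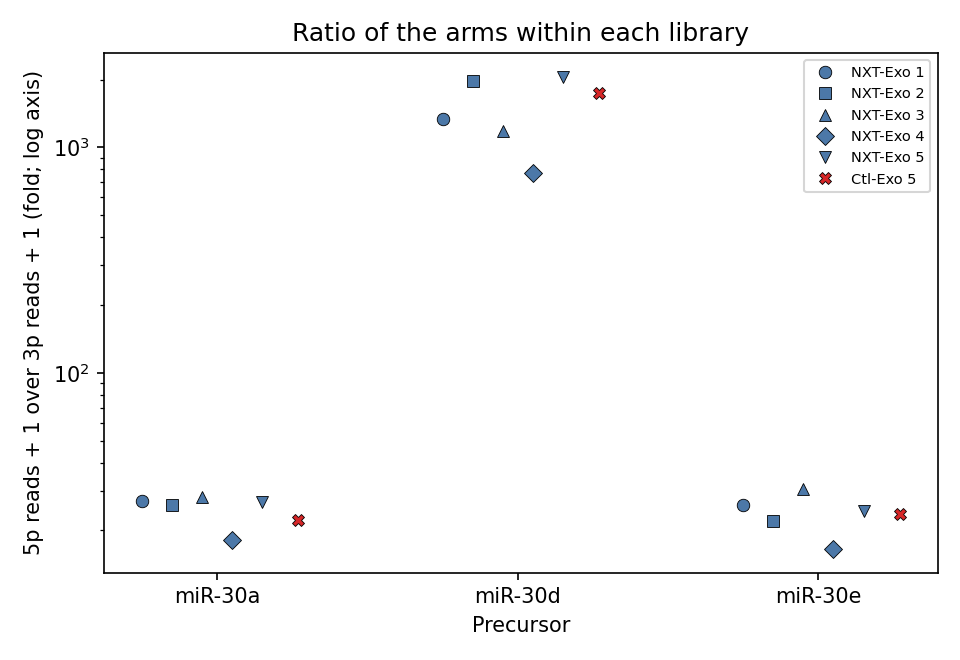
The reads + 1 of the 5p arm over those of the 3p arm are plotted as a fold on a log axis for 3 precursors in each library. miR-30a and miR-30e lie between 16.5 and 30.4-fold and miR-30d between 767 and 2061-fold, with NXT-Exo 4 lowest for each precursor.

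The 2 genes of miR-30c can be told apart by their 3p arms. miR-30c-2-3p had 57, 83, 105, 46 and 145 reads in NXT-Exo 1 to 5 and 70 in Ctl-Exo 5, and miR-30c-1-3p had 38, 56, 39, 18 and 36 reads and 37 in Ctl-Exo 5. The ratio of their reads + 1 was 1.47 to 3.95-fold, above 1 in 6 of 6 libraries, with a geometric mean of 2.18. miR-30c-5p exceeded its extended entry miR-30-x by 57.8 to 74.6-fold, and miR-30e-3p exceeded miR-30-y by 3.29 to 5.87-fold.

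Naoxintong and saline libraries were compared with edgeR's quasi-likelihood test over all 865 miRNAs, in which Ctl-Exo 5 is assumed to vary as the NXT-Exo libraries do. Of the 8 members, 0 passed a Benjamini-Hochberg adjusted p of 0.05, and 0 had an unadjusted p under 0.05. Over all miRNAs edgeR also called 0 (0%), with 46 at an unadjusted p under 0.05, and DESeq2 called 0, with 33 at an unadjusted p under 0.05 and 1 without an adjusted p. The members' count of 0 is thus that of the background. Over all miRNAs, 262 (30.3%) had Ctl-Exo 5 outside the NXT-Exo range and 99 (11.4%) were in addition at least 2-fold apart, against 0 of the 8 members for either. The count of 99 was 4 with a pseudocount of 10 CPM and 30 among the miRNAs averaging 10 reads or more, which include all 8 members. Neither share was taken over miRNAs of like abundance, so the members' 0 is a description and no trait of the family.

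The size of each difference is given as the log2 of the mean level of NXT-Exo less that of Ctl-Exo 5, after adding 1 CPM to both. The abundant 5p members differed by -0.04 (miR-30d-5p), -0.04 (miR-30a-5p), -0.11 (miR-30c-5p) and -0.07 (miR-30e-5p), each within the SD of the log2 levels of the NXT-Exo libraries, which was 0.13, 0.12, 0.20 and 0.19. miR-30e-3p differed by -0.06 with an SD of 0.18, and miR-30d-3p by 0.36 with an SD of 0.45. For miR-30b-5p, at 402.6 ± 52.3 CPM in NXT-Exo (SD, n = 5), the difference was -0.22 with an SD of 0.18.

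The difference of miR-30a-3p was -0.19 with an SD of 0.17, so miR-30b-5p and miR-30a-3p were the 2 members whose difference exceeded that SD. Neither passed the test (edgeR quasi-likelihood, Benjamini-Hochberg adjusted p = 0.815 for both). Over the members the differences ranged from -0.22 to 0.36, with 7 below 0 and 1 above (miR-30a-5p, miR-30d-5p and miR-30e-3p turn to just above 0 when scaled to the listed total or taken from the deposited TPM), and their median was -0.06, beside 0.16 over all 865 miRNAs and 0.01 over the 229 that averaged 100 reads or more. The adjusted p of the members ranged from 0.815 to 0.955 (edgeR quasi-likelihood, Benjamini-Hochberg).

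The intervals of the edgeR fit take their spread from the NXT-Exo libraries, moderated over all miRNAs, and assume the same for the control. They are thus not the spread of a member alone. The standard error was 0.232 for miR-30a-5p and 0.239 for miR-30c-5p, while the SD of their log2 levels in NXT-Exo was 0.12 and 0.20. The intervals describe these 6 libraries and do not bound the difference between the groups. For miR-30d-5p the edgeR log2 fold change was -0.04 with a 95% interval of -0.53 to 0.44, and for miR-30a-5p -0.04 with -0.52 to 0.43. For miR-30b-5p it was -0.22 with -0.69 to 0.24. Under that assumption the interval of 7 members lay inside a 2-fold change either way. miR-30d-3p was the exception, at 0.37 with -1.15 to 1.88, an interval that reached past a 2-fold change in either direction. This member rested on 12 to 28 reads a library. The summed 5p members differed by -0.06 (SD 0.12) and the summed 3p members by -0.13 (SD 0.17) on the log2 scale.

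**Figure D4:**
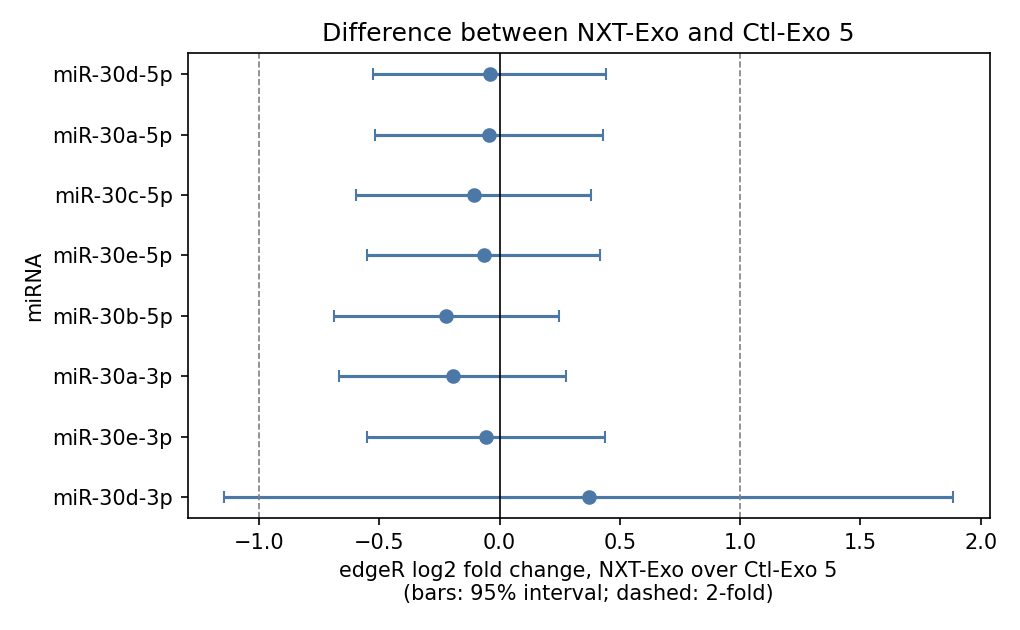
The edgeR log2 fold change of each member, NXT-Exo over Ctl-Exo 5, is plotted with its 95% interval, and dashed lines mark a 2-fold change in either direction. Each interval includes 0, and that of miR-30d-3p (-1.15 to 1.88) alone crosses the dashed lines.

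Of the 6 further miR-30 entries, 0 were called by the same edgeR test. miR-30c-1-3p was at 14.1 ± 3.30 CPM in NXT-Exo (SD, n = 5) and 20.1 CPM in Ctl-Exo 5, with all 5 NXT-Exo libraries below Ctl-Exo 5 (edgeR log2 fold change -0.52, 95% interval -1.58 to 0.54, Benjamini-Hochberg adjusted p = 0.815). miR-30b-3p was at 3.79 ± 0.95 CPM against 2.18 CPM, with all 5 above, but rested on 4 to 18 reads a library (95% interval -1.62 to 3.21, adjusted p = 0.837 by the same edgeR test). For miR-30c-2-3p the means were 33.0 ± 11.1 and 38.1 CPM, for miR-30-x 130 ± 22.5 and 134 CPM, and for miR-30-y 63.3 ± 8.53 and 70.2 CPM. miR-30-z had 6 reads in all 6 libraries together.

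The spread between the NXT-Exo libraries was lowest for miR-30a-5p and miR-30d-5p among the members. The coefficient of variation of the level in CPM was 8.13% for miR-30a-5p, 8.87% for miR-30d-5p, 12.2% for miR-30e-5p and miR-30e-3p, 12.6% for miR-30a-3p, 13.0% for miR-30b-5p and 13.1% for miR-30c-5p, and 33.6% for the rare miR-30d-3p. The median SD of the log2 level was 0.18 over the members and 0.22 over the 229 miRNAs that averaged 100 reads or more. Of those 229, 19 had a lower SD than miR-30a-5p and 34 a lower SD than miR-30d-5p, against 95 for miR-30c-5p.

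The ratios between members differed in their spread over the libraries. The log2 ratio of miR-30a-5p to miR-30e-5p had an SD of 0.08 over the 6 libraries, that of miR-30d-5p to miR-30a-5p 0.09, and that of miR-30d-5p to miR-30e-5p 0.11. That of miR-30a-5p to miR-30c-5p had an SD of 0.14, that of miR-30d-5p to miR-30c-5p 0.23, and ratios of a 5p member to miR-30b-5p one of 0.28 to 0.32. Within the 3p arms, miR-30a-3p to miR-30e-3p had an SD of 0.10. The uncertain division of reads between miR-30a-5p, miR-30d-5p and miR-30e-5p bears on their ratios, and its part was not tested. Set against the summed reads of the other 5p members, the log2 ratio had an SD of 0.03 for miR-30a-5p, 0.08 for miR-30e-5p, 0.13 for miR-30d-5p, 0.18 for miR-30c-5p and 0.27 for miR-30b-5p.

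The miRNAs outside the family whose pattern was most like it were sought as those with the lowest SD of the log2 ratio to the summed 5p members over the 6 libraries. Among 220 candidates that averaged 100 reads or more, the median SD was 0.26. The lowest was that of miR-423-3p, at 0.06, with a mean of 3353 CPM over NXT-Exo against 3499 CPM in the control. It was followed by miR-365-3p at 0.07, with 79.2 and 74.6 CPM, and miR-320-3p at 0.08, with 3319 and 3175 CPM. miR-142-x and miR-484, both at 0.11, completed the 5, with 168 and 155 CPM for the former and 906 and 836 CPM for the latter. These SDs describe 6 libraries that share their depth and composition within each library.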

How the data were processed

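Small RNA of serum exosomes was measured in 5 NXT-Exo libraries and 1 Ctl-Exo library, grouped by the sample labels. The authors sequenced TruSeq small RNA libraries, cleaned the reads of adapter dimers, other RNA classes and low-complexity sequence with ACGT101-miR, and deposited raw counts of reads per miRNA and library. The deposited TPM values are each count multiplied by a constant of its library, with 0 reads written as 0.01, and served as an alternative only. The submitters' processing notes name Rnor 6.0. The aligner, its settings and the miRNA database release are not given in the sources used here. The table holds 8 further columns, the counts and TPM under the names of 4 other Ctl-Exo libraries, which match no labelled sample and were not used, so each comparison rests on 1 control library. No row lacked a miRNA name.

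From the counts, edgeR 4.0.16 in R 4.3.3 gave TMM factors, CPM and the quasi-likelihood test over all 865 miRNAs with reads, without covariates, and Benjamini-Hochberg values were taken over all of them. With 1 Ctl-Exo library the spread comes from NXT-Exo, and edgeR moderates it over all miRNAs. DESeq2 1.42.0 was an alternative. Python 3.11.15 with numpy 2.4.6, pandas 2.3.3, scipy 1.17.1 and matplotlib 3.10.9 gave the ratios, exact sign-flip permutation tests, Wilson 95% intervals and plots. Arm and neighbour ratios used reads + 1, and levels a pseudocount of 1 CPM. Wilson intervals cover counting error only, and reads carry no molecular identifiers. The edgeR intervals also take in the spread between the NXT-Exo libraries. A level of 0 would allow up to 3 reads, or 1.63 CPM in Ctl-Exo 5. Of the tests, only the edgeR quasi-likelihood test was run on simulated data with known changes, and its rates of recovery are not given here. The sign-flip test was checked on made values of equal size, and DESeq2 was not simulated.

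The miRNAs named are the 8 members, other miR-30 entries, other entries with a member's seed, and the 5 miRNAs most like the summed 5p members. rno-miR-122-5p, named beside the dependence on the processing, was added after its values were seen. The members were chosen by name, and earlier results of these data were known when the members and lists were set. Alternatives were median-of-ratios factors, the listed total as the scale, DESeq2, a mean of at least 10 reads, pseudocounts of 0.1 and 10, the median or the mean of log2 values, TPM, counts + 10 and leaving out each library. Sequences were compared with RefSeq (GRCr8). RNA-seq of cultured cells was not analysed here.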

Additional observations from a re-analysis of the deposited data

Results flagged for a closer look

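In groups of 5 libraries, a value was looked at again where its gap to the nearest other library exceeded 0.71 of the range of the group. Of 18 groups tested over the members, 2 passed. Chance gives about 1 in 20 for a single group. The 18 groups reuse the same libraries and members, so their count cannot be set against that rate. The share of miR-30d-5p in the 5p reads of NXT-Exo had a gap of 0.751 of its range, with NXT-Exo 1 at 36.64% and the others between 31.05% and 32.45%. The log2 ratio of miR-30a-5p to miR-30a-3p had a gap of 0.82 of its range, with NXT-Exo 4 at 4.17 and the others between 4.69 and 4.81.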

How the results depend on the processing

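No paired analysis was made, because the labels do not pair NXT-Exo with Ctl-Exo libraries. The groups share a single replicate number, 5, which is not said to mark a match. Of 112 alternative values of the members' differences, 104 kept their direction and 8 had the opposite sign. No member passed the threshold under any alternative that was tested. The other pseudocounts, the median, the mean of log2 values and the TPM gave a size without a test. With the listed total as the scale, the log2 difference turned to 0.0022 for miR-30a-5p, 0.0064 for miR-30d-5p and 0.00097 for miR-30e-3p, and with the deposited TPM to 0.00217, 0.00706 and 0.00178. Leaving out an NXT-Exo library gave -0.074 to 0.00998 for miR-30d-5p and -0.11 to 0.0012 for miR-30e-5p, both positive without NXT-Exo replicate 4, so the sign of these small differences is not fixed. The adjusted p of a member ranged from 0.805 to 0.998 (edgeR or DESeq2). The summed differences kept their direction in 24 of 24 alternatives. The scaling moved the median of all miRNAs by at most 0.05 on the log2 scale. Calls by edgeR ranged from 0 to 1 when an NXT-Exo library was left out, and the 1 call, without NXT-Exo replicate 2, was rno-miR-122-5p, which is no member. The 99 miRNAs at least 2-fold apart (46 higher in NXT-Exo and 53 lower) became 4 (3 and 1) with a pseudocount of 10 CPM and 30 (22 and 8) among miRNAs that averaged 10 reads or more, and 101 to 121 when an NXT-Exo library was left out. Of 119 alternative ratios and shares, 115 stayed within their spread. With counts + 10, the log2 arm ratio of miR-30d moved to 9.94, that of miR-30e-3p to miR-30d-3p to 4.58, and the differences of arm ratios to -5.35 (miR-30a minus miR-30d) and 5.41 (miR-30d minus miR-30e), because miR-30d-3p has few reads. With 5 libraries the exact test can no longer reach 0.05. Depth limits miR-30d-3p, with 12 to 28 reads a library, and the further entries miR-30b-3p, with 4 to 18, and miR-30-z, with 0 to 2.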
